A study of Mus musculus with 19 samples.

Results

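The genes described here are 10 mouse genes whose human counterparts lie at or near loci for Alzheimer disease risk: Spi1, Inpp5d, Plcg2, Abi3, Ms4a6d and Cd33, which are genes of microglia, and Bin1, Picalm, Grn and Sorl1, which act in endocytosis, sorting and the lysosome. They were chosen by name and not by their values, out of 55487 identifiers in each table. All 10 were found, and all 10 were among the 19105 genes that passed the filter on low counts. The series asked how gene expression in the cortex of P301S/E4 mice, a mouse model of tauopathy, changes after orexin receptor antagonism. RNA-seq was made from frozen cortex of male mice in 2 groups. The lemborexant group has 10 libraries from mice gavaged daily at zeitgeber time 13 with lemborexant, a blocker of the orexin receptors that promotes sleep, at 30 mg/kg. The vehicle group has 9 libraries from mice gavaged in the same way with 0.5% methylcellulose. Treatment ran in both groups between 7.5 and 9.5 months of age, the labelled age is 41 weeks, and every library in both groups is labelled P301S/E4. P301S is the usual name of a mutation of human tau and E4 that of a human APOE allele. The labels do not spell these out, give no promoter for the tau transgene and name no library from mice without it. Nothing in the labels says that every library came from its own mouse, and p-values therefore measure only how libraries vary.

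Microglia are the resident macrophages of the brain. Their survival and state depend on the transcription factor PU.1, which Spi1 encodes, and on surface receptors such as Trem2 that signal through kinases, phospholipase C and inositol lipids. Neurons and glia also take up membrane and cargo in clathrin-coated pits, where Picalm and Bin1 act, and send cargo between endosomes, the Golgi and lysosomes, where Sorl1 and progranulin act.

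The libraries held between 20185098 and 31795633 estimated reads on genes. In 3 pairs of lemborexant libraries (1 and 10, 3 and 8, 4 and 9) the counts were nearly alike: their chi-square over genes per degree of freedom was 3.08 to 3.66, against at least 12.2 in the other 168 pairs. Each treatment test was therefore also run with the counts of each such pair summed. Cst7, which encodes cystatin F and marks microglia around pathology, was below 1 CPM, the unit of reads scaled to library size, in 4 libraries, lemborexant 1 and 10 and vehicle 1 and 4. They held between 0 and 7 Cst7 reads each, while the other 15 libraries held at least 16.4 CPM. Mapt, the tau gene of the annotation, ran between 574 and 1046 CPM in the 15 libraries and between 311 and 468 CPM in the 4. These 4 libraries are labelled P301S/E4 like the rest, but whether that label holds for them was not tested, so the genotype behind both treatment groups and behind the Cst7 split is uncertain. The share of protein-coding reads on genes with a deposited length under 1000 bases was 17.6% to 20.9% in lemborexant 6 and vehicle 3, 4 and 5, and 10.6% to 13.7% in the other 15 libraries.

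PU.1 is known to bind DNA that holds the core letters GAGGAA, and this motif was searched on both strands in windows of 300 bases around RefSeq gene starts (GRCm38.p6). The windows are shown of the 4 genes with an entry in the RefSeq table that were higher in all libraries with Cst7 of at least 1 CPM, as described further on. They read as follows on the gene's strand, 5′ to 3′, with each match of the motif in capitals (TTCCTC is the match on the other strand). They lie at chr1:87620062-87620361 (plus strand), chr7:43533122-43533421 (minus strand), chr11:102430257-102430556 (plus strand) and chr8:117498025-117498324 (plus strand).
Inpp5d: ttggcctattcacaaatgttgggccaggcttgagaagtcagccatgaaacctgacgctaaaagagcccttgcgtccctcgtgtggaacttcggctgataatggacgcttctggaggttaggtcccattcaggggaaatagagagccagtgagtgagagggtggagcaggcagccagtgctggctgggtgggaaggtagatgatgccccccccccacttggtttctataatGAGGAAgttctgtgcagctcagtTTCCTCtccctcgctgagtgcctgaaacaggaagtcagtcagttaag
Cd33: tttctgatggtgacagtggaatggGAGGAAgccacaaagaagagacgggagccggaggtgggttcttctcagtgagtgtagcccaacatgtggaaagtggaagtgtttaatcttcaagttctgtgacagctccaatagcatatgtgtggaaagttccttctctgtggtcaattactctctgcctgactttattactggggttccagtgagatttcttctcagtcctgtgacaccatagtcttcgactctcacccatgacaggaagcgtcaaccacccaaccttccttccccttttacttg
Grn: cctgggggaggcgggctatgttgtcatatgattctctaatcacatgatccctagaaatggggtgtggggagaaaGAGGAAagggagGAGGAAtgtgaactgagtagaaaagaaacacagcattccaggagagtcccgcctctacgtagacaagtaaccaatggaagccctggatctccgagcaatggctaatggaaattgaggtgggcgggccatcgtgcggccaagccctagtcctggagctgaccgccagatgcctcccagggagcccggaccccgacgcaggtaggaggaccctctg
Plcg2: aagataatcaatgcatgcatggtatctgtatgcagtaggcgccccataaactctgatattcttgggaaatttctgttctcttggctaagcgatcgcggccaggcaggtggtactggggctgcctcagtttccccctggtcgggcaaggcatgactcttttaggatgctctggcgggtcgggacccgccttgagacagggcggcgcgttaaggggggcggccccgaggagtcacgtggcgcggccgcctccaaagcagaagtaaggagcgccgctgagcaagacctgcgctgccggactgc
Inpp5d held 2 matches, 1 on each strand. Cd33 held 1, Grn 2 and Plcg2 none. Picalm, whose window was also in the table, held 2 and both Sorl1 windows held none. Of all 32851 windows, 28.3% held the motif, beside 4 of the 7 windows of these genes. A match is a run of letters and no evidence of binding. Whether the motif has a part in the Cst7 split was not tested.

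Set per gene length as deposited TPM, Grn was the most abundant of the 10, with a median of 139 TPM over the 19 libraries and a range of 38.5 to 221. Bin1 followed with 65.3 TPM (41.7 to 87.0), Sorl1 with 53.5 TPM (19.7 to 63.4) and Picalm with 34.1 TPM (20.1 to 48.6). Abi3 had a median of 25.2 TPM, Ms4a6d 11.3, Inpp5d 8.33, Cd33 6.34, Spi1 5.50 and Plcg2 1.68. The ranges of neighbours in this order overlapped in every case. Within a library, Abi3 stood above Ms4a6d and Spi1 above Plcg2 in 19 of 19 libraries, while for the other 7 neighbouring pairs the order held in 13 to 18 of the 19. The 3 endocytic and sorting genes varied least across libraries. On the CPM scale, the highest library was 1.54 times the lowest for Sorl1, 1.64 times for Picalm and 2.40 times for Bin1. The genes of microglia and Grn spread more widely, between 4.43 times for Plcg2 and 32.5 times for Ms4a6d. The lowest count behind any of these values was 22 reads, of Ms4a6d in vehicle library 1.

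**Figure D1:**
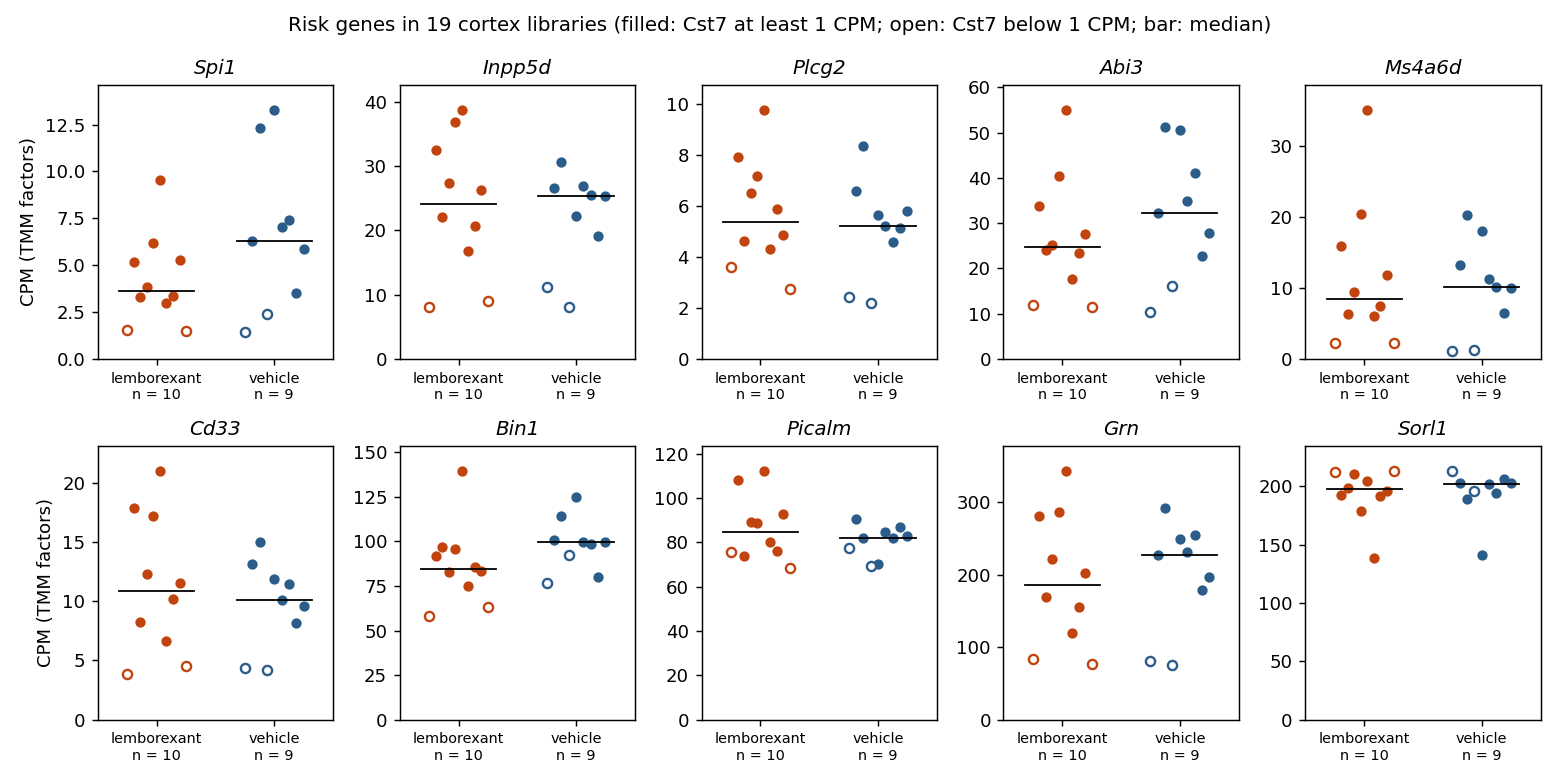
Each panel plots 1 gene as CPM with TMM factors, with lemborexant libraries on the left and vehicle libraries on the right; filled points are libraries with Cst7 of at least 1 CPM, open points those below 1 CPM, and bars are group medians. The treatment groups overlap in every panel, and the open points are lowest for 7 of the 10 genes.

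None of the 10 genes passed the test between lemborexant and vehicle libraries. In edgeR's quasi-likelihood test over all 19 libraries, 0 of 10 had an adjusted p under 0.05, where 2.61% of the 19105 genes tested did (0.953% higher and 1.65% lower). At an unadjusted p under 0.05 the count of these genes was also 0, where 25.7% of all genes lay under it. DESeq2 and limma's voom called 0 of 10 as well. DESeq2 called 5.01% of 37752 genes, taken without the expression filter, and voom 11.8% of the 19105. Of the 10 genes, 5 had a log2 change above 0 and 5 below 0, with a median of 0.05, beside a median of 0.03 over all genes tested. With the nearly alike pairs summed, edgeR called 0% of all genes (4101 of 19226 had an unadjusted p under 0.05), and 816 of 19383 when lemborexant 1 and 10 were also left out. With single libraries left out and the pairs counted separately it called between 31 and 1274 genes, the lowest counts being 31 without lemborexant 9, 35 without lemborexant 4 and 39 without vehicle 4. The 4 libraries with little Cst7 were 2 in each treatment group, but lemborexant 1 and 10 are a nearly alike pair. The split was thus even only with every library counted singly. Without these 4 libraries edgeR called 2.71% of all genes and 0 of these 10.

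Spi1, the transcription factor gene, had the lowest log2 change and the lowest p of the 10. It had 1.48 CPM in the lowest, 3.61 in the median and 9.55 in the highest lemborexant library, against 1.42, 6.31 and 13.3 CPM in vehicle libraries. The groups overlapped up to 9.55 CPM, while vehicle 5 and vehicle 3 lay above every lemborexant library. The next highest was lemborexant 6. The log2 change was -0.64 ± 0.38 (SE; edgeR adjusted p = 0.290), a fold of 0.644 with a 95% interval of 0.385 to 1.078. Without the libraries low in Cst7 it was -0.70 ± 0.29 (edgeR adjusted p = 0.156, unadjusted p = 0.0263). Over all 19 libraries with Cst7 of at least 1 CPM as a covariate it was -0.62 ± 0.25 (edgeR adjusted p = 0.114, unadjusted p = 0.0218). That fit called 1130 of 19105 genes. With the nearly alike pairs summed it was -0.49 ± 0.42 (edgeR adjusted p = 0.502). The 3 libraries highest in Spi1 were also 3 of the 4 highest in the share of reads on short genes. They were the 3 highest in Cst7 as well. With that share as a covariate, an alternative added after seeing the data, edgeR called 0.738% of all genes, and the change of Spi1 was -0.23 ± 0.30 (edgeR adjusted p = 0.675). Without the 4 libraries over 15% of short-gene reads, also added after seeing the data, it was -0.51 ± 0.35 (edgeR adjusted p = 0.563; 0% of all genes called). The log2 change of Spi1 stayed below 0 in all 52 alternatives, and in none was its adjusted p under 0.05.

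The signalling genes Inpp5d and Plcg2 had changes smaller than their SE. Inpp5d encodes SHIP1, a phosphatase that removes a phosphate from the lipid product of PI3-kinase. It had 8.03, 24.1 and 38.7 CPM in the lowest, median and highest lemborexant library, against 8.04, 25.4 and 30.6 CPM in vehicle libraries. The lowest libraries of both groups were those low in Cst7, and the 3 highest were lemborexant 6, 5 and 2. Its log2 change was 0.13 ± 0.28 (edgeR adjusted p = 0.799), and the interval of its fold was 0.745 to 1.61. Plcg2 encodes the phospholipase C that acts below Trem2 and Fc receptors. It had 2.75, 5.37 and 9.78 CPM in lemborexant libraries, against 2.21, 5.21 and 8.38 CPM in vehicle libraries. The groups covered almost the same range, and the log2 change was 0.17 ± 0.25 (edgeR adjusted p = 0.696; fold interval 0.802 to 1.57).

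Among the genes of the microglial surface and cytoskeleton, the same held. Abi3 encodes an adaptor of the WAVE complex that shapes actin. Most of its exon bases overlap Zfp652 on the opposite strand, and without strand the reads there cannot be told apart. It had 11.6, 24.6 and 55.0 CPM in lemborexant libraries, against 10.5, 32.3 and 51.3 CPM in vehicle libraries. The groups overlapped over nearly their whole range, and the log2 change was -0.24 ± 0.30 (edgeR adjusted p = 0.633). Ms4a6d encodes a membrane protein of the family that spans the membrane several times and sits in the MS4A gene cluster. It was the most variable of the 10, with 2.24, 8.42 and 35.1 CPM in lemborexant libraries, against 1.079, 10.1 and 20.2 CPM in vehicle libraries. Lemborexant 6 stood highest, and the log2 change of 0.20 ± 0.52 (edgeR adjusted p = 0.838) allowed a fold between 0.565 and 2.33. Cd33 encodes a receptor that binds sialic acid and is known in humans as an inhibitory receptor. It had 3.898, 10.8 and 21.0 CPM in lemborexant libraries, against 4.23, 10.1 and 15.0 CPM in vehicle libraries. Lemborexant 6, 2 and 5 lay above all vehicle libraries, but the log2 change was 0.21 ± 0.30 (edgeR adjusted p = 0.678).

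The endocytic and sorting genes Bin1, Picalm and Sorl1 had narrower intervals, but Grn did not. Bin1, which encodes a protein that bends membranes, had 58.2, 84.7 and 139.8 CPM in lemborexant libraries, against 76.4, 99.5 and 125 CPM in vehicle libraries. The median was lower with lemborexant while its highest library, lemborexant 6, exceeded all others. The log2 change was -0.18 ± 0.13 (edgeR adjusted p = 0.408), with a fold interval of 0.740 to 1.06. Picalm, the clathrin assembly adaptor, had 68.5, 84.6 and 112 CPM in lemborexant libraries, against 69.2, 81.9 and 90.4 CPM in vehicle libraries. Its groups overlapped, with lemborexant 6 and 2 above the rest, and its log2 change was 0.10 ± 0.09 (edgeR adjusted p = 0.491; fold interval 0.948 to 1.22). Sorl1 encodes SORLA, a receptor that carries the amyloid precursor protein between the Golgi and endosomes. It had 138, 197 and 213 CPM in lemborexant libraries, against 141, 202 and 213 CPM in vehicle libraries. The groups shared the same range, with a single low library in each, lemborexant 7 and vehicle 5. Its log2 change was -0.0041 ± 0.087 (edgeR adjusted p = 0.981; fold interval 0.886 to 1.12). On log2(TPM + 1), where the median over all genes was 0.18, Sorl1 was at 0.42 (limma adjusted p = 0.122). Grn encodes progranulin, a secreted protein that also works in the lysosome, and had 77.1, 186 and 343 CPM in lemborexant libraries, against 75.2, 226 and 292 CPM in vehicle libraries. The lowest libraries of both groups were again those low in Cst7, and the log2 change was -0.03 ± 0.29 (edgeR adjusted p = 0.957; fold interval 0.659 to 1.45).

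**Figure D2:**
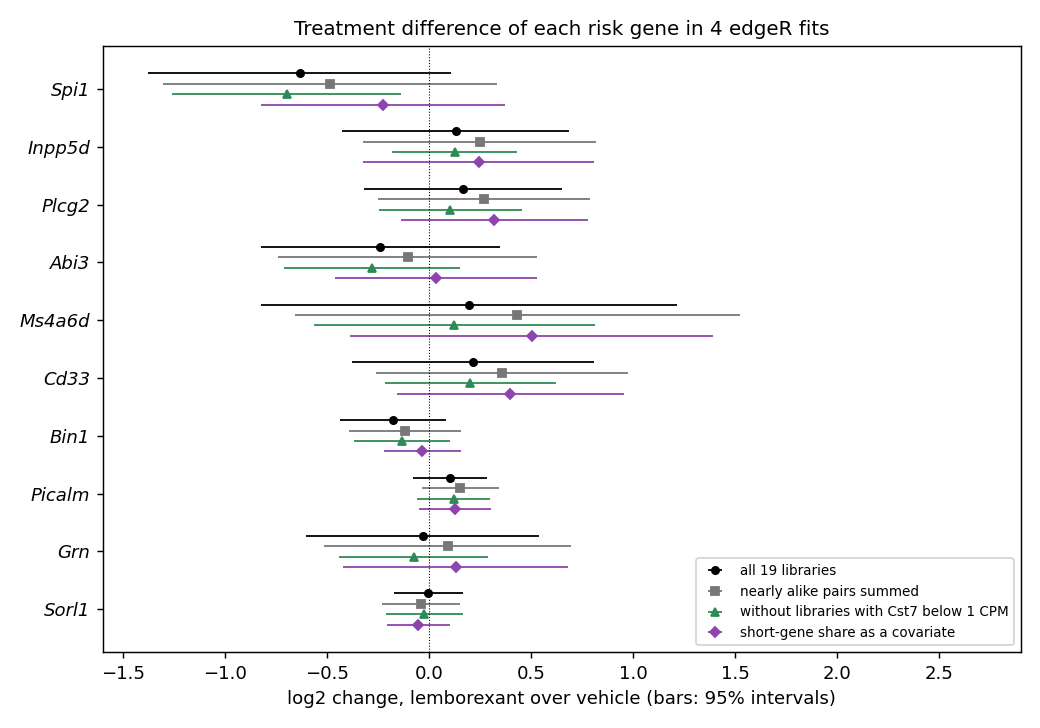
Points are log2 changes (lemborexant over vehicle) of each gene in 4 edgeR fits, with bars of 95% intervals; 3 fits use all 19 libraries or sum the nearly alike pairs or add the short-gene share as a covariate, and 1 leaves out the 4 libraries with Cst7 below 1 CPM. The only bar that does not cross 0 is that of Spi1 without those 4 libraries, whose edgeR adjusted p over all genes was 0.156.

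The labels number the libraries in 2 series, 859 to 933 (3 lemborexant and 2 vehicle) and 1064 to 1602 (7 of each). They do not say what the numbers stand for. Within the higher series the log2 change of Spi1 was -0.63, of Bin1 -0.14 and of Picalm 0.18, and within the lower series -0.46, -0.21 and -0.10. Inpp5d, Plcg2, Ms4a6d and Cd33 were above 0 in the higher series (0.27, 0.33, 0.34 and 0.31) and below 0 in the lower (-0.25, -0.27, -0.19 and -0.01). Lemborexant 8, 9 and 10 of the lower series are the nearly alike partners of lemborexant 3, 4 and 1 of the higher. The 2 series are therefore not separate samples of lemborexant. Libraries low in Cst7 also fell unevenly, with lemborexant 10 in the lower series and lemborexant 1, vehicle 1 and vehicle 4 in the higher. The part of either in these signs was not tested. Within the higher series edgeR called 0.0422% of all genes and within the lower 0%, and none of the 10 had an adjusted or unadjusted p under 0.05 in either. Markers of another brain region and of other cells differed between the treatment groups when every library was counted singly. With the nearly alike pairs summed, edgeR called 0 of the hippocampal and 0 of the border macrophage markers, as it called 0 of all genes. The summed CPM of 13 hippocampal markers ran between 423 and 764 in lemborexant libraries and between 666 and 948 in vehicle libraries, with all 13 log2 changes below 0 and 4 called lower by edgeR. The 8 tested markers of border macrophages and monocytes all had log2 changes above 0, with 2 called higher, and summed to 9.49 to 50.5 CPM in lemborexant libraries, against 5.52 to 18.7 CPM in vehicle libraries. None of the marker genes was at 0 in every library. With a hippocampal score as a covariate, edgeR called 0% of all genes and none of these 10. Spi1 was then at -1.41 ± 0.51 (edgeR adjusted p = 0.167, unadjusted p = 0.0119) and Bin1 at -0.44 ± 0.17 (edgeR adjusted p = 0.169, unadjusted p = 0.0162). The hippocampal score ran from 0.245 to 0.529 in vehicle libraries. Of the lemborexant libraries only 1 and 10, a nearly alike pair low in Cst7, reached that range (0.387 and 0.418). The lowest, lemborexant 6, was at -1.33. The fit with this covariate therefore separates score and treatment poorly. The part of border macrophages in these values was not tested.

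The pattern that ran through the genes of microglia was the one between libraries with and without appreciable Cst7. The split was made on a measured gene of the same libraries, so its values are given as a description without a test. The 4 libraries below 1 CPM include 1 nearly alike pair. Of the 10 genes, 7 were higher in every one of the 15 libraries with Cst7 of at least 1 CPM than in any of the 4 below it: Spi1, Inpp5d, Plcg2, Abi3, Ms4a6d, Cd33 and Grn. Of all 19105 genes, 6.33% were higher in this way and 2.27% lower. In bulk tissue, fewer cells of a type and less RNA per cell cannot be told apart.

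Ms4a6d showed the widest gap. It ran from 6.12 through a median of 11.3 to 35.1 CPM in the 15 libraries, against 2.29 and 2.24 CPM in lemborexant 1 and 10 and 1.079 and 1.32 CPM in vehicle 1 and 4. The ratio of medians was 6.34, and the 4 low libraries sat well under the lowest of the others. Spi1 had 2.97, 5.84 and 13.3 CPM as lowest, median and highest of the 15, against 1.57 and 1.48 CPM in lemborexant 1 and 10 and 1.42 and 2.40 CPM in vehicle 1 and 4. Its ratio of medians was 3.83, and the gap between the groups was narrow, with vehicle 4 close to lemborexant 7. Grn reached 119, 226 and 343 CPM in the 15 libraries, against 84.3 and 77.1 CPM in lemborexant 1 and 10 and 80.8 and 75.2 CPM in vehicle 1 and 4. The 4 low values of Grn lay within 1.12 times of each other. The remaining genes of microglia had smaller ratios of medians, 3.08 for Inpp5d, 2.74 for Abi3, 2.68 for Cd33 and 2.23 for Plcg2. Inpp5d ran between 16.8 and 38.7 CPM in the 15 libraries and between 8.03 and 11.2 CPM in the 4. Abi3 came nearest to overlap, with 17.7 CPM in the lowest of the 15 and 16.1 CPM in the highest of the 4.

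The other 3 genes overlapped between the 2 sets of libraries. Bin1 ran between 74.9 and 139.8 CPM in the 15 libraries and between 58.2 and 92.2 CPM in the 4, a ratio of medians of 1.39. In TPM it no longer overlapped, with 58.3 to 87.0 TPM in the 15 libraries and 41.7 to 53.9 TPM in the 4. Picalm had a ratio of 1.17. Sorl1 had 138, 196 and 210.3 CPM as lowest, median and highest of the 15 libraries, against 212 and 213 CPM in lemborexant 1 and 10 and 213 and 196 CPM in vehicle 1 and 4, a ratio of 0.923. Sorl1 was thus the only one of the 10 whose median was lower with Cst7 present.

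Marker levels of several cell types moved with this split, and their part in it was not tested. The 12 homeostatic microglial markers, such as P2ry12 and Tmem119, summed to 801 to 2278 CPM in the 15 libraries and to 386 to 646 CPM in the 4. The 15 markers of disease-associated microglia, Cst7 among them, summed to 2369 to 9495 CPM in the 15 libraries and to 803 to 975 CPM in the 4. The 6 astrocyte markers also separated the sets, with 5817 to 12860 CPM in the 15 libraries and 2578 to 3726 CPM in the 4. The 4 T cell markers, at far lower levels, summed to 3.59 to 11.2 CPM in the 15 libraries and to 1.27 to 2.40 CPM in the 4, and 3 of the 4 genes did not overlap. The 7 neuronal markers were lower in the 15 libraries, at 3174 to 6480 CPM, than in the 4, at 7127 to 7909 CPM. Sums of oligodendrocyte markers (5453 to 14843 CPM in the 15 libraries, 4663 to 7798 CPM in the 4) and of border macrophage markers (8.63 to 50.5 CPM in the 15, 5.52 to 16.3 CPM in the 4) overlapped.

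Set against the summed homeostatic microglial markers of each library, the order of the genes changed. Ms4a6d alone of the 10 stayed higher in all 15 libraries, at 0.626% to 1.54% of the marker sum, against 0.187% to 0.591% in the 4, with a ratio of medians of 2.17. Spi1, Inpp5d, Plcg2, Abi3, Cd33 and Grn overlapped between the sets on this scale, with ratios of medians between 0.772 for Plcg2 and 1.09 for Spi1. Bin1, Picalm and Sorl1 were below the range of the 4 libraries in all 15 on this scale. Their ratios of medians were 0.449, 0.452 and 0.299. The marker sum itself had a median of 1407 CPM in the 15 libraries and 482 CPM in the 4. A gene at like CPM in both sets therefore falls on this scale by construction. The share of all genes that separate the sets on this scale is not given here. Csf1r and Sall1 are among the markers that also stand in lists used further on.

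**Figure D3:**
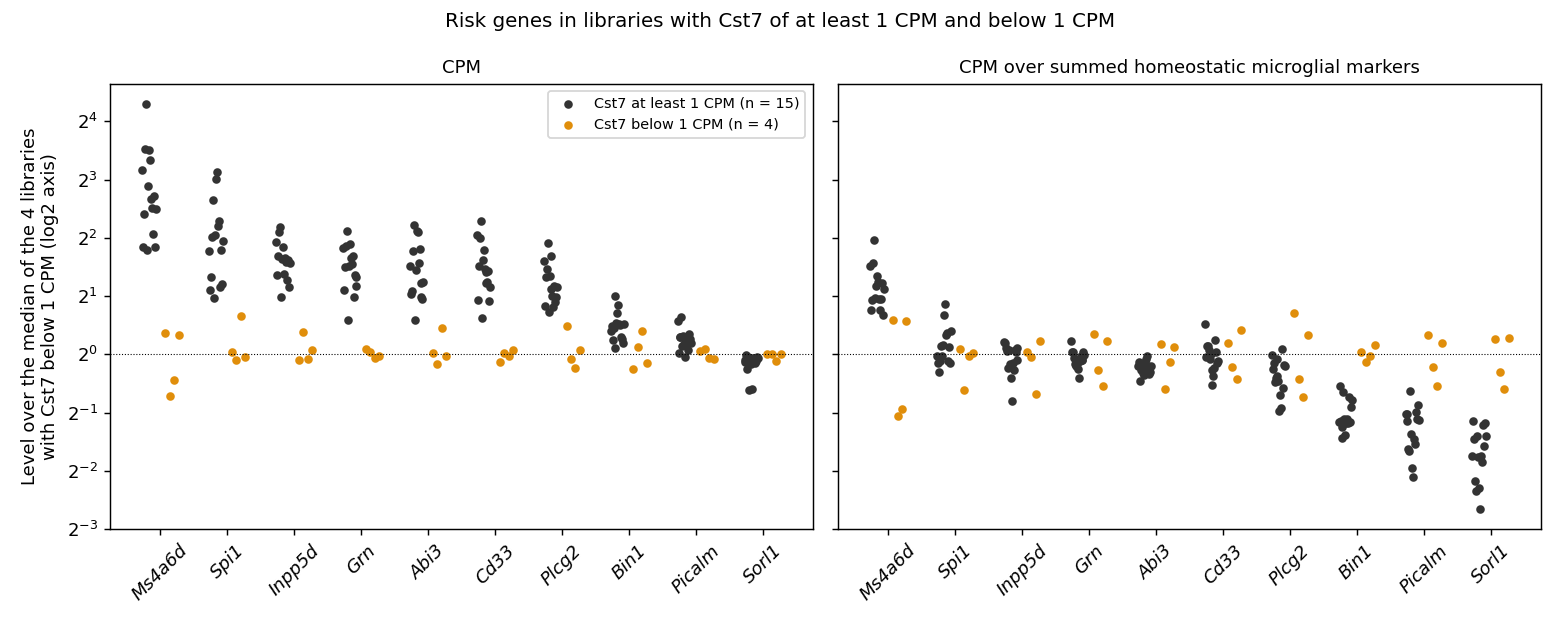
Each point is 1 library, as its level over the median of the 4 libraries with Cst7 below 1 CPM, on a log2 axis; the left panel uses CPM and the right panel CPM over the summed homeostatic microglial markers, with libraries of at least 1 CPM Cst7 left of those below it for each gene. On the left 7 genes separate the sets (ratios of medians of 2.23 to 6.34). On the right Ms4a6d alone stays above, with a ratio of 2.17, and Bin1, Picalm and Sorl1 lie below. The marker sum is itself larger with Cst7 of at least 1 CPM, so genes at like CPM in both sets fall on the right.

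Within the 15 libraries that held Cst7 the genes fell into different patterns. With each of the 2 nearly alike pairs among them averaged, they form 13 units. Spearman's rho over these is given as a description with no p, since all genes share the same libraries and depth. Abi3 (0.912), Ms4a6d (0.890) and Spi1 (0.868) ran most closely with Cst7, followed by Bin1 (0.769), Cd33 (0.731) and Grn (0.676). Inpp5d (0.396) and Plcg2 (0.379) ran with it only loosely, Picalm (-0.05) not at all, and Sorl1 (-0.52) against it. Inpp5d instead ran with Grn (0.841), Cd33 (0.835) and Plcg2 (0.819), and hardly with Spi1 (0.192). Cd33 and Grn had the highest rho of any pair of the 10 (0.929).

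A search of 13971 genes with a mean of at least 1 CPM ranked the others by rho with each of the 10 over the same 13 units, and genes among the 3 nearest are named here. For Abi3 these were Ptpn6, the phosphatase SHP-1 (0.989), Irf8, a transcription factor of microglia (0.989), and Lpxn (0.984). Cd33 had Sp140 and Il2rg among its nearest (0.962 each). The nearest of Grn were Ly9 (0.984) and the leukocyte genes Lcp1 and Ptprc (0.973 each). Ms4a6d had Ctsd, a lysosomal protease, and Cd300lb (0.973 each), and then Prdx6 (0.967). Inpp5d had Gpnmb, a glycoprotein of loaded macrophages (0.956), Nedd1 (0.945) and Fblim1 (0.940), and Plcg2 had Vav2 (0.945), Degs2 and Ticam1 (0.923 each). The nearest of Spi1 were H2-DMa, which loads peptides on MHC class II (0.984), Uqcr11, a small subunit of the respiratory chain, and Tmsb4x, thymosin beta-4 (0.978 each). For Plcg2, as for the remaining genes, no leukocyte gene was among those named. Bin1 had Rangrf (0.912), Npas1 (0.907) and Map3k10 (0.890), Picalm had Ppp4r3a (0.978), Tram2 (0.973) and A2m (0.962), and Sorl1 had Usp2 (0.962).

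Levels of 3 genes are shown against the share of reads on short genes. Spi1 was highest in the 3 libraries of at least 1 CPM Cst7 with the largest shares, at 9.55 CPM in lemborexant 6 (19.3%), 12.3 CPM in vehicle 3 (19.6%) and 13.3 CPM in vehicle 5 (20.9%). Bin1 was highest in the same 3 libraries, while Sorl1 was at 204, 189 and 141 CPM there. The same 3 libraries were also the highest in Cst7, at 131, 122 and 144 CPM. Their summed homeostatic microglial markers were the highest too, at 2278, 2035 and 1938 CPM. Short-gene share and microglial markers thus cannot be told apart in these 3, and the part of either was not tested. Vehicle 4 had a share of 17.6% and a Spi1 level of 2.40 CPM, the highest of the 4 libraries low in Cst7.

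**Figure D4:**
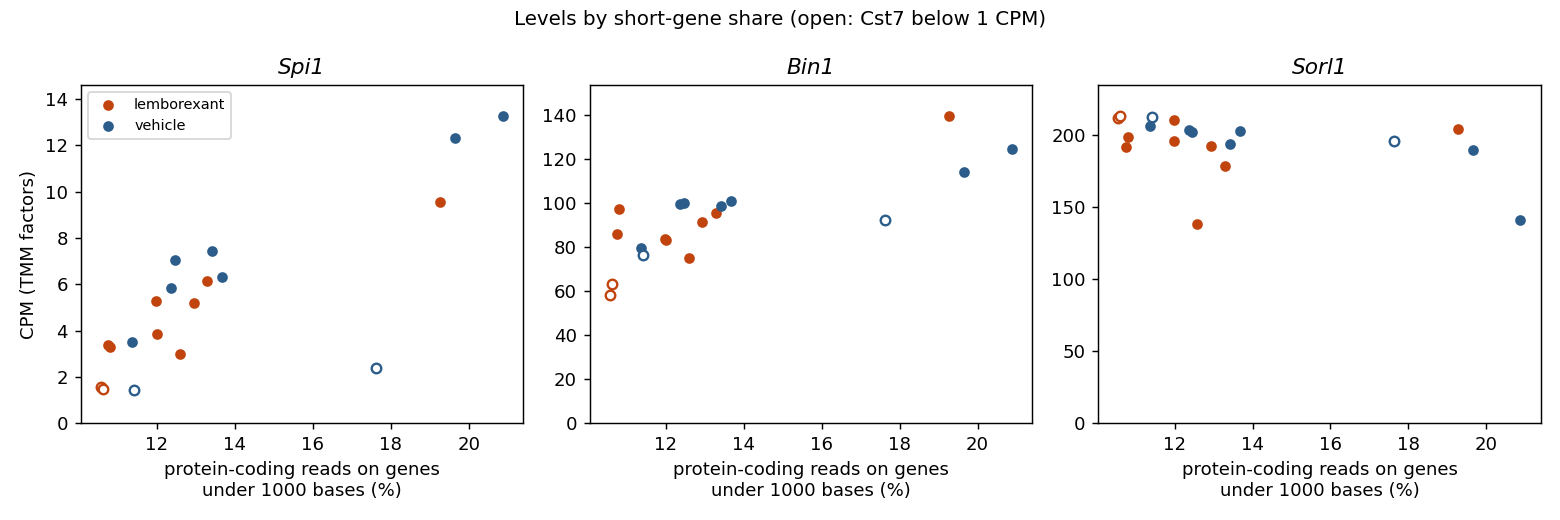
Each point is 1 library, with the percentage of protein-coding reads on genes under 1000 bases on the x axis and CPM with TMM factors on the y axis, for Spi1, Bin1 and Sorl1; open points have Cst7 below 1 CPM. The 3 filled points beyond 19% are the 3 highest for Spi1 and for Bin1, and 1 of them, vehicle 5, is among the 2 lowest for Sorl1.

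Lists of related genes placed these genes in their pathways. Over 7 lists with 135 distinct tested genes, edgeR called 4 higher and 2 lower with lemborexant, beside 0.953% and 1.65% of all genes. With the nearly alike pairs summed it called 0 of them (26 had an unadjusted p under 0.05), and without the libraries low in Cst7 it called 4. Sorcs1, a sorting receptor of the same family as Sorl1, averaged 10.1 ± 2.57 CPM in lemborexant libraries and 4.98 ± 1.20 CPM in vehicle libraries (SD, n = 10 and 9). It was higher with lemborexant by 1.02 ± 0.17 on the log2 scale (edgeR adjusted p = 0.0191; 0.0711 with the pairs summed). It was the only one of 19 genes of the retromer and sorting list that was called, and Vps26b, a retromer subunit, was at -0.27 ± 0.08 (edgeR adjusted p = 0.0720).

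Of the 29 genes of clathrin-mediated endocytosis, 1 was called in each direction. Dnm3, a dynamin that pinches vesicles off the membrane, averaged 133 ± 17.1 CPM in lemborexant libraries and 90.6 ± 18.4 CPM in vehicle libraries, a log2 change of 0.56 ± 0.12 (edgeR adjusted p = 0.0258; 0.0891 with the pairs summed). Epn1, the clathrin adaptor epsin, averaged 36.6 ± 5.50 CPM in lemborexant libraries and 53.2 ± 10.4 CPM in vehicle libraries, a log2 change of -0.54 ± 0.11 (edgeR adjusted p = 0.0258; 0.0759 with the pairs summed). The list had a median of -0.14, with 10 genes above 0 and 19 below, beside a median of 0.03 over all genes.

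Of 37 tested genes near other Alzheimer risk loci, edgeR called 2 higher and 1 lower. Wwox, an oxidoreductase with WW domains, was at 42.1 ± 3.38 CPM in lemborexant libraries and 34.4 ± 4.08 CPM in vehicle libraries, a log2 change of 0.29 ± 0.07 (edgeR adjusted p = 0.0401). Nck2, an adaptor that links receptors to actin, was at 15.6 ± 2.85 CPM in lemborexant libraries and 20.7 ± 2.41 CPM in vehicle libraries, a log2 change of -0.41 ± 0.11 (edgeR adjusted p = 0.0483). Usp6nl, a regulator of Rab proteins, was named after its value was seen and was at 0.38 ± 0.10 (edgeR adjusted p = 0.0496). With the pairs summed, neither Wwox (edgeR adjusted p = 0.115) nor Nck2 (0.0916) passed.

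The lists closest to microglia and the lysosome held no call in edgeR, where 0 of 22, 2 of 10, 1 of 11 and 2 of 17 genes had an unadjusted p under 0.05 in the order given here, beside 25.7% of all genes. Among 22 genes of receptor signalling around Plcg2 and Inpp5d, the 2 with the smallest p were the PI3-kinase subunit gene Pik3cd (-0.21 ± 0.11, edgeR adjusted p = 0.235) and the ubiquitin ligase gene Cbl (0.15 ± 0.08, edgeR adjusted p = 0.239). Among 10 tested transcription factors they were Mef2c (0.96 ± 0.30, edgeR adjusted p = 0.0751), which neurons express too, and Bhlhe41 (0.32 ± 0.11, edgeR adjusted p = 0.0874). Among 11 tested Ms4a and sialic acid-binding receptors, Ms4a4a was at 1.26 ± 0.44 (edgeR adjusted p = 0.0929) and Siglecf at -0.86 ± 0.51 (edgeR adjusted p = 0.288). Among 17 progranulin partners and lysosomal genes, Psap, whose protein prosaposin binds progranulin, was at 0.21 ± 0.10 (edgeR adjusted p = 0.171). Slpi, whose protein shields progranulin from cleavage, was at 0.82 ± 0.38 (edgeR adjusted p = 0.180) with averages under 1 CPM in both groups.

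**Figure D5:**
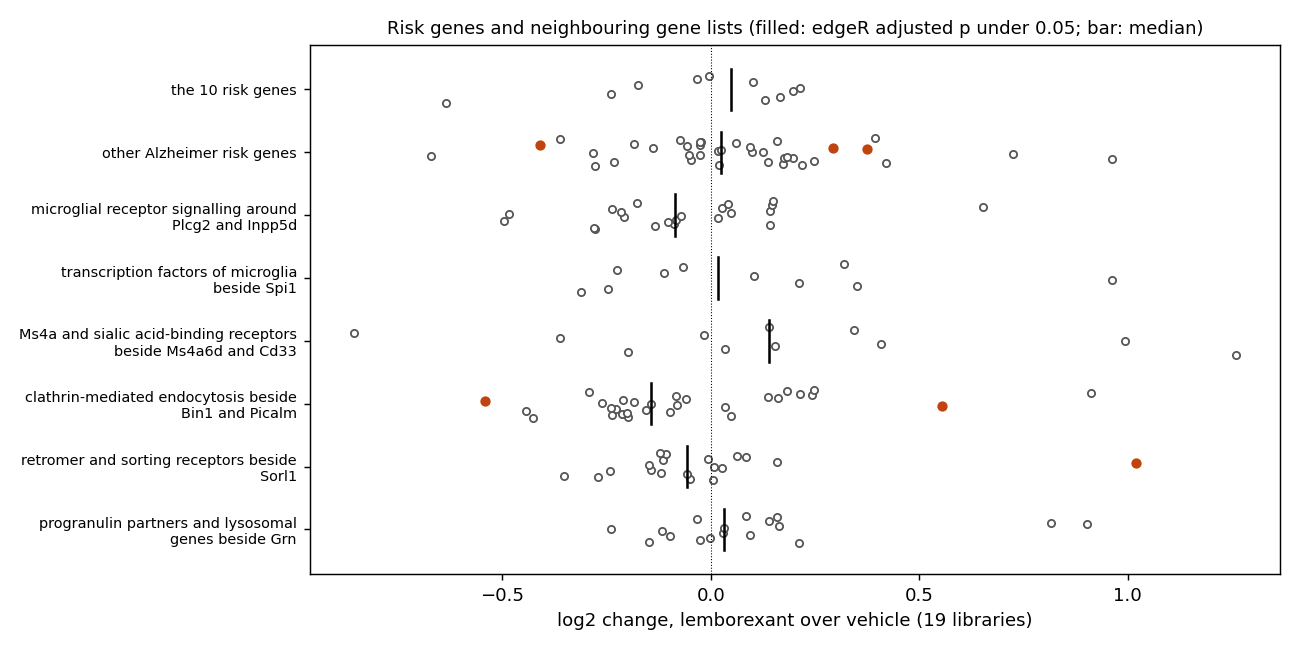
Points are log2 changes (lemborexant over vehicle, 19 libraries) of the 10 genes and of the tested genes in 7 related lists; filled points passed an edgeR adjusted p of 0.05 over all genes and bars are medians. The 10 genes hold no filled point, and the 6 filled points lie in the lists of other risk genes, clathrin-mediated endocytosis and sorting receptors.

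Between libraries with and without appreciable Cst7 the lists differed more. Of the 135 genes, 45 were higher in all 15 libraries than in any of the 4, and 7 were lower, beside 6.33% and 2.27% of all genes. Receptor signalling contributed 15 of 22 genes, all higher, among them Trem2 (74.0 to 334 CPM in the 15 libraries, 10.01 to 26.7 CPM in the 4), Tyrobp, Btk and Syk. The lysosomal list had 11 of 17 higher, with Ctsd at a median of 2471 CPM in the 15 libraries and 582 CPM in the 4. Of the receptors beside Ms4a6d and Cd33, 7 of 11 were higher. Ms4a6c had medians of 8.36 CPM in the 15 libraries and 1.17 CPM in the 4, and Siglecf medians of 5.63 CPM in the 15 and 0.627 CPM in the 4. Clathrin-mediated endocytosis went the other way. Its 7 lower genes were Ap2b1, Ap2m1, Snap91, Amph, Sh3gl2, Eps15 and Necap1, several of which are best known from nerve terminals, and its 2 higher ones were Dnm2 and Rin3. Amph, the relative of Bin1, had medians of 175 CPM in the 15 libraries and 287 CPM in the 4, and Snap91, the relative of Picalm, 140.03 CPM in the 15 and 179 CPM in the 4. None of the 19 retromer and sorting genes separated the sets.

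Positions in the GENCODE annotation of GRCm38 bear on how far each value belongs to its gene, since no strand setting is given in the sources used here. Abi3 (chr11:95830074-95842476, minus strand) shares 70.1% of its exon bases with Zfp652 on the opposite strand. Without strand, reads from the shared bases cannot be told apart, so Abi3 levels are uncertain. Ms4a6d (chr19:11586604-11604849, minus strand) shares 8.11% of its runs of 31 bases with other genes, most of them with Ms4a6b. Exon overlap with a gene on the other strand was 6.22% for Bin1 (chr18:32377230-32435737, plus strand), 1.957% for Grn (chr11:102430315-102437048, plus strand) and 1.63% for Sorl1 (chr9:41964720-42124297, minus strand). The remaining genes, Spi1 (chr2:91082390-91115756, plus strand), Inpp5d (chr1:87620312-87720507, plus strand), Plcg2 (chr8:117498291-117635142, plus strand), Cd33 (chr7:43524216-43544428, minus strand) and Picalm (chr7:90130213-90213465, plus strand), shared under 1% of their runs of 31 bases with any other gene.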

How the data were processed

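Cortical RNA of 19 libraries was measured by RNA-seq after a Takara SMARTer Ultra Low preparation, per the labels' protocols. Per the submitters' processing notes, bcl2fastq and DRAGEN 3.9.3-8 were used with GRCm38. Which annotation release, strand setting and filters were used is not given in the sources used here. For each gene and library the authors deposited an estimated count, a TPM value, a length and an effective length, as the file headers name them. The estimated counts need not be whole and were rounded. The deposited TPM are relative to each library's total and to gene length. Symbols and positions came from GENCODE's GRCm38 annotation, which named 55227 of 55487 identifiers, and promoter windows came from RefSeq (GRCm38.p6), which held windows of 6 of the 10 genes.

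Groups came from the treatment labels, and replicates were numbered within a group in accession order. Triplicates are mentioned in the design text of the series, but 10 and 9 libraries carry the labels. Columns of other samples numbered 0. The two-sided quasi-likelihood test of edgeR 4.0.16 in R 4.3.3 (robust, TMM factors, edgeR's expression filter, no covariate) was fitted over 19105 genes, with Benjamini-Hochberg adjustment and a threshold of 0.05. CPM carry TMM factors, and the SE is the log2 change divided by the root of F. Intervals of 95% are normal and cover only the spread between libraries. Alternatives used DESeq2 1.42.0, limma 3.58.1 (voom with quality weights, and log2(TPM + 1) or log2(TPM + 0.1), keeping genes that average 1 TPM or more), other filters, covariates and sets of libraries. The hippocampal score is the mean over 13 marker genes of centred log2 CPM. Besides the 10 genes and Cst7, the text names the 2 genes with the smallest p of each related list, and for each of the 10 the 3 most alike genes by Spearman's rho, some of which are not reported here. Other genes were chosen after their values were seen: Usp6nl, and those named as examples in the Cst7 split. The genes and lists were chosen with earlier results of these data known, and the alternatives on short-gene reads and on the scaling of the Cst7 split were added after seeing the data. Depth limits precision most for Ms4a6d, Spi1 and Plcg2, whose lowest counts were 22, 29 and 47 reads.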

Additional observations from a re-analysis of the deposited data

Results flagged for a closer look

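Among 48 groups of libraries examined for a value far from its group, 5 held one. Chance alone gives about 1 in 20 only where values are independent. The lemborexant groups hold nearly alike pairs and all genes share the same libraries, so that rate need not hold here. Bin1 in lemborexant library 6 was at 139.8 CPM, with the next of that group at 97.1 CPM. Sorl1 was lowest in lemborexant library 7 at 138 CPM, with the next of that group at 178 CPM, and in vehicle library 5 at 141 CPM, with the next of that group at 189 CPM. Nck2, an adaptor gene near another risk locus, was highest in vehicle library 4 at 26.5 CPM, where the next of that group was at 21.3 CPM. Psap, the prosaposin gene, was lowest in lemborexant library 7 at 1740.2 CPM, where the next of that group was at 2107 CPM.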

How the results depend on the processing

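None of the 10 genes passed 0.05 in any of 52 alternatives (520 results in all), where the lowest adjusted p was 0.110, of Bin1 with 1 library left out. Over the alternatives that leave out libraries singly or as summed pairs, the log2 change ran between -0.85 and -0.30 for Spi1, -0.27 and -0.041 for Bin1, -0.42 and 0.032 for Abi3, -0.16 and 0.62 for Ms4a6d, -0.16 and 0.23 for Grn and -0.085 and 0.035 for Sorl1, and stayed above 0 for Inpp5d, Plcg2, Cd33 and Picalm. Signs turned elsewhere as follows, and the cause was not tested. With the hippocampal score, Inpp5d was at -0.43, Plcg2 -0.26, Ms4a6d -0.90, Cd33 -0.37, Picalm -0.10 and Sorl1 0.054. In libraries 859 to 933, Inpp5d was at -0.25, Plcg2 -0.27, Ms4a6d -0.19, Cd33 -0.011, Picalm -0.096, Cbl -0.068 and Vps26b 0.019. With voom, Inpp5d was at -0.025 and Ms4a6d at -0.059. On log2(TPM + 1) and log2(TPM + 0.1), where the median of all genes was 0.18 and 0.20, Abi3 was at 0.0027 and 0.0049, Bin1 at 0.031 and 0.031, Grn at 0.13 and 0.14 and Sorl1 at 0.42 and 0.43. With the short-gene share, Abi3 was at 0.035 and Grn at 0.13, and without libraries over 15% of short-gene reads Inpp5d was at -0.012. Grn was also at 0.091 with the pairs summed, 0.094 in libraries 1064 to 1602 and 0.081 without lemborexant 7 and vehicle 7, which left Sorl1 at 0.041.

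Calls over all genes, 498 as reported, were 254 without an expression filter, 1892 with DESeq2, 2251 with voom, 118 and 26 on log2(TPM + 1) and log2(TPM + 0.1), and 2137 at a threshold of 0.1. They were 1130 with Cst7 as a covariate, 294 with the library series, 141 with the short-gene share, 307 without lemborexant 7 and vehicle 7, and 8 in libraries 1064 to 1602. They were 0 with the pairs summed (also without the libraries low in Cst7), with the hippocampal score, in libraries 859 to 933 and without libraries over 15% of short-gene reads. Leaving out libraries gave 0 to 1274. Without lemborexant 9, lemborexant 4 or vehicle 4 there were 31, 35 and 39, and with the pairs summed there were 816 without lemborexant 1 and 10. Calls in the related lists, 6 as reported, were 3, 18, 16, 1, 1 and 17 under the first 6 of these settings in that order, 3 with the library series and 2 with the short-gene share. They were 0 with the pairs summed, with or without the libraries low in Cst7, with the hippocampal score, in either library series and without libraries over 15% of short-gene reads, and 0 to 10 when libraries were left out. No single call named in those lists held with the pairs summed.

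Of the 10 genes, 7 or more separated the libraries by Cst7 with RLE factors, TPM, plain CPM or averaged pairs, and 7 to 8 with any library left out. On CPM with TMM factors over all 19 libraries, 6.33% of all genes were higher in this way and 2.27% lower. The share of all genes under the other settings is not given here, so these counts have no background beside them. Scaled to the summed homeostatic microglial markers, Ms4a6d alone stayed higher, and Bin1, Picalm and Sorl1 were lower. That sum was itself higher in the libraries with Cst7 of at least 1 CPM. The share of all genes that separate on that scale is not given here. No paired analysis was possible because the labels give library numbers but no replicate numbers that treatments share. Spread and depth limit Ms4a6d most, whose fold interval was 0.565 to 2.33.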
